A study of Solanum lycopersicum with 12 samples.

Results

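The ammonium transporters AMT1-1, AMT1-2 and AMT1-3 were followed through lateral root development in tomato (Solanum lycopersicum). They were chosen by locus tag, Solyc09g090730 for AMT1-1, Solyc04g050440 for AMT1-2 and Solyc03g045070 for AMT1-3, and are 3 of the 34027 genes in the deposited table. The RefSeq table (assembly SLM_r2.1) lists protein-coding genes with these symbols on chromosomes 9, 4 and 3, the chromosome numbers that the tags carry, with the older names LeAMT1;1, LeAMT1;2 and LeAMT1;3. It does not list the tags themselves, so the names rest on the choice of tags.

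Seedlings of cultivar M82 carrying the auxin-response reporter DR5::VENUSx3-NLS were grown on agar plates with half-strength MS medium and sucrose, and all groups shared this genotype and medium. Each stage had 2 libraries. The control was a piece of the primary root's differentiation zone without lateral roots. In stage 1 sections a pair of cells expressed DR5, and stage 2 was the first periclinal division. The primordium passed the endodermis at stage 3, lay in mid-cortex at stage 4 and touched the epidermis at stage 5, before emergence. The labels do not give the plants' age or the number of plants behind a library. Nor do they say that duplicates came from separate plants, so the p-values measure only the spread between these libraries, which may be technical. A section also contained the primary root tissue around the primordium. Within it, fewer cells that express a gene and less RNA per cell cannot be told apart.

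AMT proteins form trimers in the plasma membrane and carry ammonium into the cell. Members of the AMT1 branch account for high-affinity uptake from the soil. In tomato, AMT1-1 and AMT1-2 are known as root transporters with transcripts in root hairs. There, AMT1-1 responds to nitrogen shortage, and AMT1-2 to nitrogen supply. AMT1-3 is known mainly from leaves. In Arabidopsis, ammonium taken up through the protein that is called AMT1;3 there promotes lateral root branching.

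Library totals ran from 1948144 to 6196272 counts, the smallest being stage 5 replicate 2. Values below are CPM, counts scaled to a common library size, after TMM normalisation, a correction for differences in library composition. Libraries were made with a 3′ kit that reads transcripts at their poly(A) end, so counts were not divided by length and levels are compared between libraries and not between genes. A gene was called when its Benjamini-Hochberg adjusted p-value in edgeR's quasi-likelihood test, adjusted over all 18357 genes that passed a filter on low counts, was under 0.05. AMT1-1 and AMT1-2 passed this filter and AMT1-3 did not. All 3 had whole-number counts in every library before rounding.

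AMT1-1 was highest at the earliest stages and lowest at the latest. Its level was 113 and 121 CPM in the control libraries, 229 and 193 CPM at stage 1, and 224 and 178 CPM at stage 2. It was 100.4 and 101 CPM at stage 3, 75.6 and 81.5 CPM at stage 4, and 85.6 and 76.1 CPM at stage 5. All 4 libraries of stages 1 and 2 lay above both controls, and all 6 libraries of stages 3 to 5 lay below both controls. The share of all genes tested with either separation from the controls was not counted. The mean level was 117 ± 5.9 CPM in the control, and in order of stage it was 211 ± 25.3, 201 ± 32.6, 101 ± 0.64, 78.5 ± 4.2 and 80.9 ± 6.7 CPM (SD, n = 2 each).

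AMT1-2 kept a similar mean from the control to stage 3 and was lowest at stage 5. Its level was 388 and 194 CPM in the control libraries, 370.1 and 261 CPM at stage 1, and 419 and 272 CPM at stage 2. It was 313 and 347 CPM at stage 3, 104 and 246 CPM at stage 4, and 96.2 and 79.3 CPM at stage 5. The stage 5 libraries lay below all other libraries, while the control, stage 1, stage 2 and stage 3 libraries overlapped. How many of all genes tested had stage 5 lowest in this way was not counted. The mean level was 291 ± 137 CPM in the control, and in order of stage it was 316 ± 77.2, 345 ± 104, 329.9 ± 24.5, 175 ± 99.96 and 87.7 ± 11.9 CPM (SD, n = 2 each).

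AMT1-3 was at the edge of detection. It had 39 counts in all 12 libraries together, 0 in 3 of them and more than the floor of 3 counts in 6. The control libraries held 4 and 2 counts. Stage 1 and stage 3 each had libraries with 0 and 5 counts, and stage 2 had 0 and 1. Stage 4 had 11 and 6 counts, while stage 5 had 4 and 1. Stage 4 was the only group with both libraries above the floor. Summed over its libraries and divided by their totals, the level at stage 4 was 1.54 CPM (95% exact Poisson interval 0.895 to 2.46), against 0.883 CPM in the control (0.324 to 1.92). For the other stages in order it was 0.409 (0.133 to 0.955), 0.109 (0.00276 to 0.607), 0.497 (0.162 to 1.16) and 0.836 CPM (0.271 to 1.95). The intervals, which cover counting error only, of every stage overlapped that of the control. When the filter was left out, AMT1-3 had an adjusted p-value of 0.468 for any difference among the 6 groups (edgeR). The counting intervals of stages 4 and 2 did not overlap, and their adjusted p-value without the filter was 0.0994 (edgeR). Whether depth or the spread between duplicates limits these comparisons was not tested.

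**Figure D1:**
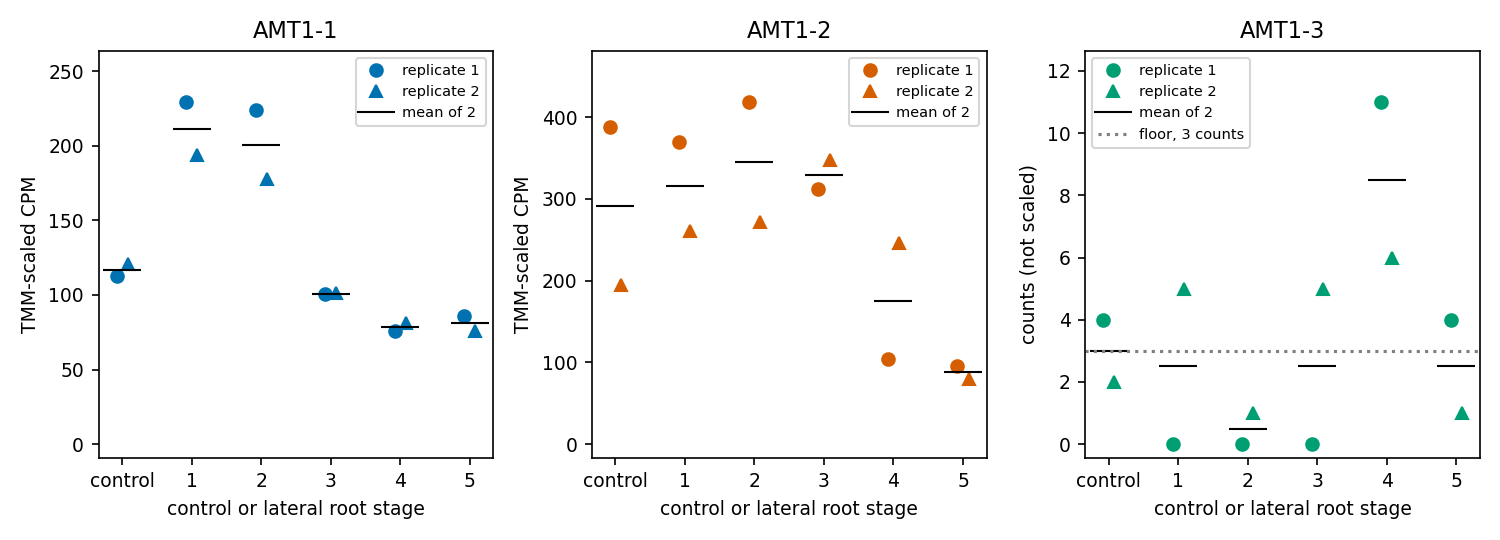
Level of each transporter by library, with the control and stages 1 to 5 on the horizontal axis; AMT1-1 and AMT1-2 are in TMM-scaled CPM, AMT1-3 in unscaled counts with the floor of 3 counts dotted, and bars are means of 2 libraries. AMT1-1 stands at 178 to 229 CPM at stages 1 and 2 and at 75.6 to 101 CPM at stages 3 to 5, whereas the duplicates of AMT1-2 lie far apart in the control and at stage 4.

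Both tested transporters differed among the 6 groups. The adjusted p-value was 0.00011 for AMT1-1 and 0.0142 for AMT1-2 (edgeR's quasi-likelihood F test). Such a difference was found for 44.4% of all genes tested, so it was common in this series. The call of AMT1-2 was lost without either stage 5 library (adjusted p = 0.0606 and 0.0773, edgeR).

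Each stage was then set against the control, to ask where in the series the transporters departed from root tissue without a primordium. AMT1-1 rose at stage 1 by 0.86 ± 0.18 on the log2 scale (SE), a 1.81-fold higher level, with an adjusted p-value of 0.00992 (edgeR). At stage 2 it rose by 0.78 ± 0.18 (SE; 1.72-fold, adjusted p = 0.0264, edgeR). Of all genes tested, 13.2% were called at stage 1 (9.94% higher) and 5.99% at stage 2 (5.25% higher). The median log2 change of all genes was 0.14 at stage 1 and 0.10 at stage 2, so the rises of AMT1-1 relative to the median gene were 0.71 and 0.68. With only the 4 compared libraries scaled and fitted together, these medians were 0.01 and 0.00, and the log2 changes of AMT1-1 were 0.73 and 0.70, with adjusted p-values of 0.0698 and 0.16 (edgeR). Under that scaling 827 genes were called higher and 603 lower at stage 1, where the fit over all libraries called 1825 higher and 607 lower. The stage 1 call was also lost without stage 1 replicate 1 (adjusted p = 0.101, edgeR). The stage 2 call was lost without either control library, either stage 2 library or stage 3 replicate 2 (adjusted p between 0.0532 and 0.232, edgeR).

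AMT1-1 did not differ from the control beyond the threshold at stage 3, with a log2 change of -0.21 (95% interval -0.61 to 0.19, adjusted p = 0.475, edgeR). At stage 4 it fell by 0.57 ± 0.18 on the log2 scale (SE), to 0.673 of the control level (adjusted p = 0.0313, edgeR). At stage 5 it fell by 0.53 ± 0.19 (SE), to 0.695 of the control level (adjusted p = 0.036, edgeR). Of all genes tested, 16.3% were called at stage 3, 32.9% at stage 4 (13.5% lower) and 46.2% at stage 5 (21.8% lower), so late calls were common. Without the filter the SE of AMT1-1 was larger, 0.24 at stages 4 and 5. Both late calls were lost when all libraries were thinned to the smallest (adjusted p = 0.066 at stage 4 and 0.107 at stage 5, edgeR), without the filter (0.0706 and 0.0684) and with only the 4 libraries compared (0.0961 and 0.151). Each was also lost without control replicate 2, without stage 3 replicate 1 and without either library of its own stage (adjusted p between 0.0508 and 0.178, edgeR).

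AMT1-2 did not differ from the control beyond the threshold at stages 1 to 4. Its log2 changes were 0.11 at stage 1 (95% interval -0.74 to 0.97), 0.25 at stage 2 (-0.61 to 1.10) and 0.18 at stage 3 (-0.68 to 1.03). At stage 4 the change was -0.74 (-1.60 to 0.13, adjusted p = 0.175, edgeR). It became a call without stage 4 replicate 2, the higher library of that stage (log2 change -1.51, adjusted p = 0.0191, edgeR), and without the filter (adjusted p = 0.00849). Without the filter the log2 change at stage 4 was -0.73 and its SE 0.23, against an SE of 0.40 with it. The intervals at stages 1 to 3 contain the log2 change of 0.86 that AMT1-1 showed at stage 1, so the absence of a call does not show that AMT1-2 stayed level. At stage 5 AMT1-2 fell by 1.73 ± 0.41 on the log2 scale (SE), to 0.302 of the control level (adjusted p = 0.00491, edgeR). This call depended on control replicate 1, the higher control library: without it the log2 change was -1.17 with an adjusted p of 0.0558 (edgeR).

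**Figure D2:**
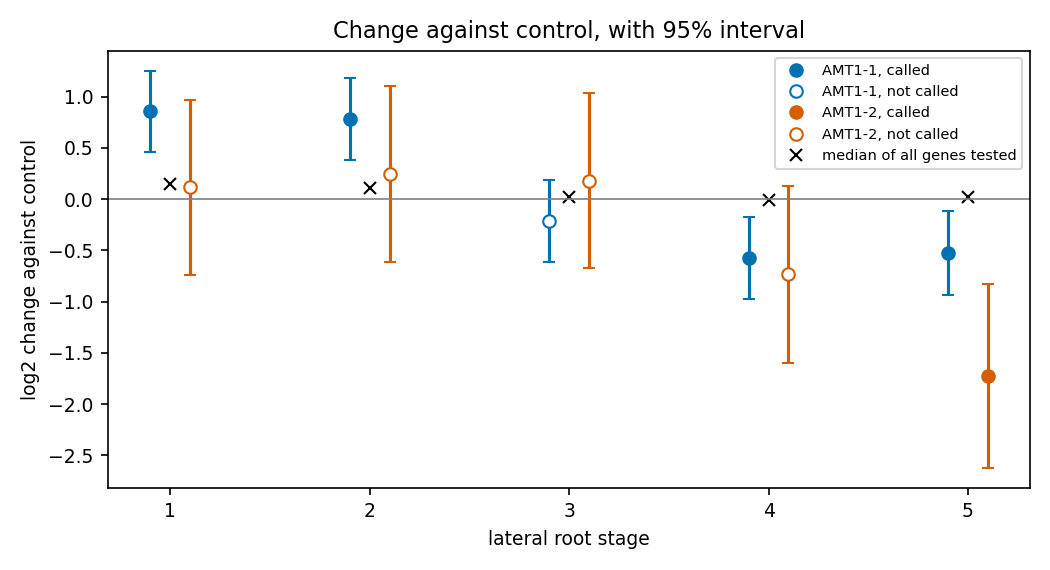
Log2 change of AMT1-1 and AMT1-2 against the control at stages 1 to 5, with 95% intervals from edgeR's fit; filled points were called, open points were not, and crosses mark the median of all genes tested. AMT1-1 lies above 0 at stages 1 and 2 and below 0 at stages 4 and 5, and AMT1-2 leaves 0 at stage 5, at -1.73.

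Consecutive stages were compared to place the changes. AMT1-1 fell at stage 3, where the primordium passed the endodermis, against stage 2, by 0.99 ± 0.18 on the log2 scale (SE), to 0.502 of the stage 2 level (adjusted p = 0.0195, edgeR). This step was called for 3.74% of all genes and was a fall for 1.17% of them. The call was lost without any single library of stage 2 or stage 3 (adjusted p between 0.0626 and 0.19, edgeR), although the log2 change stayed between -1.13 and -0.81. The log2 change of AMT1-2 at this step was -0.07 (95% interval -0.92 to 0.79, adjusted p = 0.956, edgeR).

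No other step was called for either transporter, and few genes were. The share of genes called was 0.278% between stages 1 and 2, 0.0872% between stages 3 and 4, and 0% between stages 4 and 5. For the last step edgeR called 0 genes, with 3230 genes at an unadjusted p under 0.05, and DESeq2 called 553. The log2 change of AMT1-2 was -0.91 ± 0.40 (SE) at stage 4 against stage 3 and -0.99 ± 0.41 (SE) at stage 5 against stage 4. The unadjusted p-values were 0.0395 and 0.0306 and the adjusted ones 0.477 and 0.234 (edgeR). Without the filter both steps of AMT1-2 were called (adjusted p = 0.00498 and 0.00102, edgeR). The SEs were then smaller, 0.23 and 0.24, while the steps hardly moved, at -0.92 and -1.03. The stage 4 libraries decided their size. Without stage 4 replicate 1 the log2 changes were -0.43 and -1.49, and without stage 4 replicate 2 they were -1.68 and -0.24, none of them called. The corresponding changes of AMT1-1 were -0.36 ± 0.18 and 0.05 ± 0.19 (SE).

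Stages that do not follow each other were compared after the levels had been seen. AMT1-1 fell by 1.43 ± 0.18 on the log2 scale (SE) at stage 4 against stage 1, to 0.372 of the stage 1 level (adjusted p = 0.000241, edgeR). It fell by 1.38 ± 0.19 (SE) at stage 5 against stage 1, by 1.35 ± 0.18 at stage 4 against stage 2, and by 1.31 ± 0.19 at stage 5 against stage 2. All 4 libraries of stages 4 and 5 were below all 4 of stages 1 and 2, as was so for 22.8% of all genes tested, and these 4 calls held in each of the 19 alternative settings run. Of all genes tested, stage 4 differed from stage 1 in 29% and from stage 2 in 22.1%, and stage 5 differed from stage 1 in 44.4% and from stage 2 in 41.1%.

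AMT1-2 fell at stage 5 against each of the earlier stages with a similar mean. The log2 change was -1.84 ± 0.41 (SE) against stage 1, with an adjusted p-value of 0.00362 (edgeR). It was -1.97 ± 0.41 against stage 2 (adjusted p = 0.00281, edgeR) and -1.91 ± 0.41 against stage 3 (adjusted p = 0.0112, edgeR). The last comparison was called for 17% of all genes, and its call was lost without stage 3 replicate 2 (adjusted p = 0.0723, edgeR) and without stage 5 replicate 1 (0.0576). At stage 4 the SE of AMT1-2 against stages 1 and 2 was 0.40, and 0.23 without the filter. AMT1-2 was not called there against stage 1 (adjusted p = 0.129, edgeR) or stage 2 (0.0984). Both became calls without the filter (adjusted p = 0.00173 and 0.000323, edgeR) and without stage 4 replicate 2 (0.0189 and 0.018).

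The levels can therefore be ordered with their errors. For AMT1-1 the order of means was stage 1, stage 2, control, stage 3, stage 5 and stage 4, and the step between stage 2 and the control was the only one between neighbours that passed the threshold. For AMT1-2 the order was stage 2, stage 3, stage 1, control, stage 4 and stage 5. Stages 3 and 1 of AMT1-2 were not tested against each other, and their libraries overlapped. No other neighbours in that order differed past the threshold.

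The 6 libraries of stages 3 to 5 were also set against the 6 of the control and stages 1 and 2, in log2(CPM + 1). AMT1-1 averaged 6.45 ± 0.19 in the later libraries and 7.42 ± 0.44 in the earlier ones (SD, n = 6 each), a difference of -0.97. Every later library was below every earlier one, as was so for 7.74% of all genes tested, and the two-sided exact permutation p was 0.00216, the smallest that splits of 12 libraries into 6 and 6 can give. AMT1-2 averaged 7.39 ± 0.94 in the later and 8.26 ± 0.42 in the earlier libraries (SD, n = 6 each), a difference of -0.88 with an exact permutation p of 0.0801. Without stage 3 replicate 1 or replicate 2 the exact permutation p for AMT1-2 was 0.0433 or 0.0346. For AMT1-2 the stage 3 values of 8.29 and 8.44 were within the earlier range. These p-values and the following one are not adjusted for the 3 tests made. Their splits took single libraries as the unit, although the 2 libraries of a group share a stage. They therefore do not measure the spread between stages.

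Whether the pair differed in their change was tested within libraries, where depth cancels. The log2(CPM + 1) of AMT1-1 minus that of AMT1-2 averaged -0.94 ± 0.80 in the later libraries and -0.85 ± 0.48 in the earlier ones (SD, n = 6 each). The difference of -0.10 was smaller than the spread (two-sided exact permutation p = 0.76), so a different overall decline was not shown. Within the later stages the value ran from -1.63 and -1.77 at stage 3, where AMT1-1 was called lower than at stage 2, to -0.17 and -0.06 for stage 5, where AMT1-2 was called lower than at stage 3. The duplicates of the control gave -1.77 and -0.68 and those of stage 4 gave -0.46 and -1.58, so both pairs spanned most of the range.

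**Figure D3:**
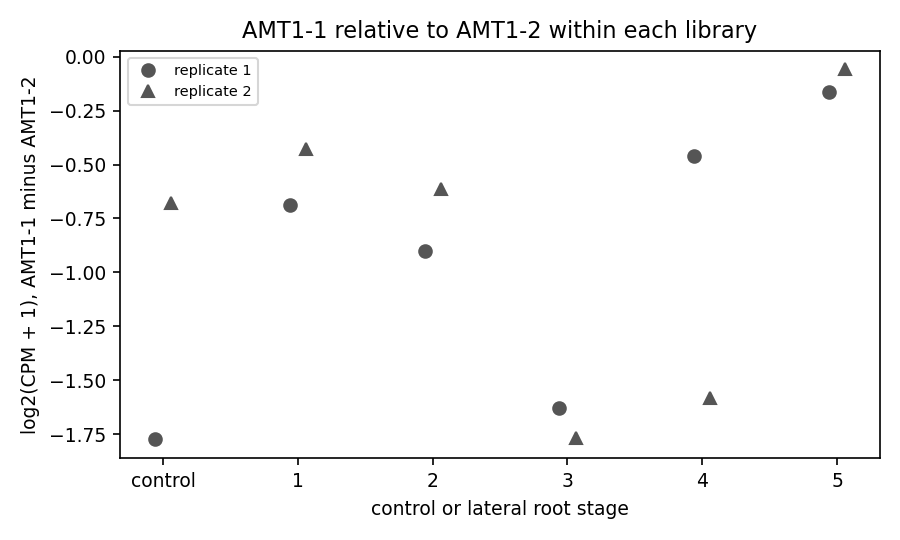
Log2(CPM + 1) of AMT1-1 minus that of AMT1-2 in each library, by control and stage, with circles for replicate 1 and triangles for replicate 2. Stage 3 sits low, with -1.63 and -1.77, stage 5 sits high, with -0.17 and -0.06, and the control and stage 4 duplicates are far apart.

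The transporters differed in how well duplicates matched. For AMT1-1 the higher library exceeded the lower by between 1.01-fold at stage 3 and 1.26-fold at stage 2. For AMT1-2 the ratio was 2.00 in the control and 2.35 at stage 4, with 526 and 1463 counts behind the stage 4 values. Only 3.44% of all genes tested had a larger log2 difference between the stage 4 duplicates, and 12.3% between the control duplicates. The biological coefficient of variation estimated by edgeR was 0.144 for AMT1-1 and 0.285 for AMT1-2, against a trend value of 0.191 and 0.192 for genes of their abundance.

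Replicate numbers did not link libraries across stages, so libraries of the same number do not form a course. For AMT1-1, stages 1 and 2 were above the control and stage 3 and later below it under either number. AMT1-2 was highest at stage 2 among the replicate 1 libraries, at 419 CPM, and was at 104 CPM at stage 4. Among the replicate 2 libraries it was highest at stage 3, at 347 CPM, with 246 CPM at stage 4 and 79.3 CPM at stage 5. These differences for AMT1-2 reflect the spread between duplicates.

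**Figure D4:**
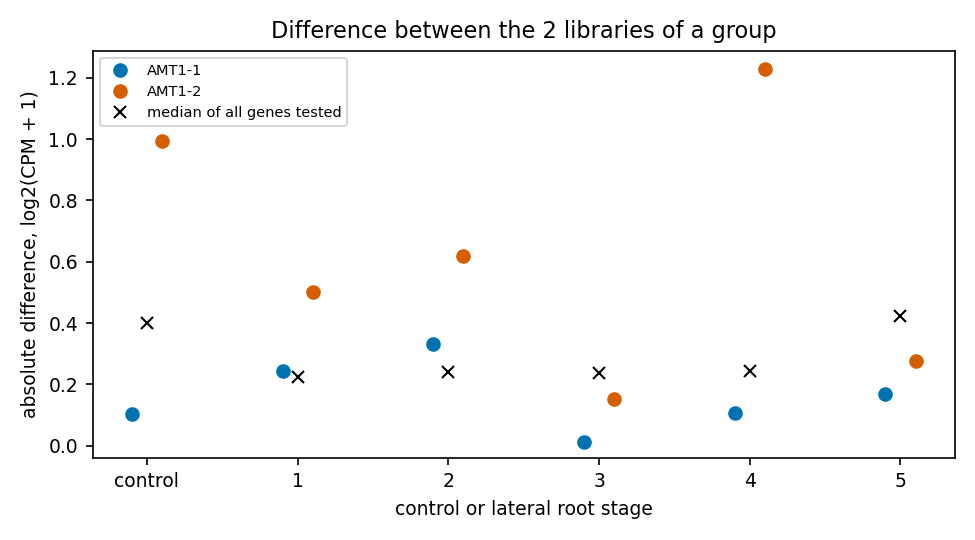
Absolute difference in log2(CPM + 1) between the 2 libraries of each group, for AMT1-1 and AMT1-2, with crosses for the median of all genes tested. AMT1-2 reaches 0.99 in the control and 1.23 at stage 4, against medians of 0.40 and 0.24, while AMT1-1 stays at or below 0.33.

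The tested genes with the course most like AMT1-1 were sought by Pearson correlation of log2(CPM + 1) over the 12 libraries, among 14803 genes with a mean of at least 20 counts. The closest were Solyc02g087070 and Solyc09g020110, each with r = 0.98. Solyc02g087070, whose counts were fractional in at least 1 library, averaged 24.7 CPM in the control, 84.1 and 68.3 at stages 1 and 2, and 14.6, 8.26 and 7.94 at stages 3 to 5. Solyc09g020110 averaged 35.7 CPM in the control and ran from 52.6 CPM at stage 1 to 27.5 CPM at stage 5.

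For AMT1-2 the closest were Solyc02g094330, with r = 0.967, and Solyc11g006910, with r = 0.966. Solyc11g006910 averaged 289.9 CPM in the control, 379, 371 and 338 CPM at stages 1 to 3, 155 CPM at stage 4 and 65.1 CPM at stage 5. AMT1-1 and AMT1-2 correlated with each other at r = 0.659, and 2923 genes were closer to AMT1-1 than AMT1-2 was. These correlations describe 12 libraries that share their scaling and their stages, and they carry no test. None of the 4 tags is named in the files or the RefSeq table.

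Further nitrogen genes were followed as a list of 16 locus tags set down from memory for nitrate uptake, nitrate reduction and ammonium assimilation. Neither the deposited table nor the RefSeq table names these tags, so the list could not be checked and no tag is given a role. The list was also chosen with earlier results of these data known. Its counts and medians, here and at the later stages, are therefore descriptive and do not test the list as a set. Of the 16 tags, 14 passed the filter and 1 had no count in any library. At stages 1 and 2, where AMT1-1 was called higher, 0 of the 14 were called higher, while 4 were called lower at stage 1 and 1 at stage 2 (Solyc10g078550). Their median log2 change was -1.04 at stage 1, against 0.14 for all genes, and -0.55 at stage 2, against 0.10. Among all genes 3.31% were called lower and 9.94% higher at stage 1, and 0.741% lower and 5.25% higher at stage 2. Lower calls at stage 1 numbered 7 under DESeq2 and 7 of 15 tested tags without the filter. They numbered 6 with 10 counts in every library and with the replicate block. The 4 lower calls at stage 1 became 0 without control replicate 2 or without either stage 1 library. The 1 lower call at stage 2 was lost without control replicate 2, either stage 1 library, stage 2 replicate 2 or either stage 3 library, and with only the 4 libraries compared. It became 3 without control replicate 1 and 6 without the filter.

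At stages 4 and 5 most of the listed tags were called lower. Stage 3 had 1 tag called higher and 0 called lower, stage 4 had 1 higher and 9 lower, and stage 5 had 1 higher and 10 lower. Among all genes 13.5% were called lower at stage 4 and 21.8% at stage 5, and 13.0% were called higher at stage 3, 19.4% at stage 4 and 24.4% at stage 5. The 9 lower calls at stage 4 became 11 under DESeq2 and without the filter, and 6 with only the 4 libraries compared. The median log2 change of the 14 tags was -0.51 at stage 3, against 0.02 for all genes. It was -1.005 at stage 4, against -0.01, and -1.39 at stage 5, against 0.02. Their summed level was 2506 to 3095 CPM at stage 5, against 7894 to 10084 CPM in the control. Solyc04g014510 and Solyc03g083440 contributed most to this sum, with means of 2901 and 1754 CPM in the control and 453 and 749 CPM at stage 5. The tag that rose was the same at all 3 stages, Solyc04g055200, with 40.1 ± 11.5 CPM at stage 5 against 13.1 ± 3.0 CPM in the control (SD, n = 2 each; log2 change 1.60 ± 0.29 SE, adjusted p = 0.000953, edgeR). Its stage 3 call was lost without control replicate 2, without stage 3 replicate 1 and with only the 4 libraries compared. The 0 lower calls at stage 3 (edgeR) became 2 under DESeq2 and without control replicate 1, 1 without either stage 5 library, and 5 without the filter. Without stage 4 replicate 1, 3 in place of 9 tags were lower at stage 4.

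A second list held 4 tags set down from memory for further AMT genes, likewise unnamed in both tables, so whether they belong to the family is not stated here. Of these, 1 had no count in any library and 1, Solyc10g076480, passed the filter. Solyc10g076480 averaged 4.73 ± 0.04 CPM at stage 4 and 6.37 ± 3.0 CPM at stage 5, against 14.9 ± 4.1 CPM in the control (SD, n = 2 each), and was called lower at both stages (adjusted p = 0.00802 and 0.0254, edgeR). Among all genes tested, 13.5% were called lower at stage 4 and 21.8% at stage 5. At stages 1 to 3 Solyc10g076480 averaged 22.3, 17.4 and 8.22 CPM, and its changes against the control were not called. Stage 4 was called lower than stages 1 and 2 (log2 changes -2.23 and -1.89). Stage 5 was called lower than them too (-1.90 and -1.56). The shares of all genes called lower were 14.9% and 10.4% at stage 4, and 23.2% and 20.9% at stage 5.

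Tissue markers could be checked only through tags recalled in the same way. The summed level of 4 tags listed for root ground tissue and the stem cell niche was 41.8 to 71.4 CPM at stages 1 and 2 and 100.4 to 126 CPM at stages 3 to 5, against 21.5 to 22.4 CPM in the control, with 0 of the 4 at 0 counts throughout. Most of this sum came from 1 tag, Solyc10g074680, which averaged 13.2 CPM in the control and 90.9, 90.4 and 81.3 CPM at stages 3 to 5. In order of stage, 2, 1, 2, 3 and 4 of the 4 tags were called higher than the control. Among all genes tested the shares called higher were 9.94%, 5.25%, 13.0%, 19.4% and 24.4%. In the control, Solyc03g096300 and Solyc06g074230 averaged 0.44 and 1.17 CPM, where 3 counts were 0.72 and 1.14 CPM in the 2 libraries. They passed the filter through the stages, at means of 3.6 to 11.8 CPM. Their calls against the control are therefore no support for a rise of the list. The 4 tags listed for the Rubisco small subunit, a leaf protein, summed to 241 to 358 CPM in the control, and in order of stage to 65.8 to 119.8, 109.8 to 155, 90.8 to 235, 169 to 298 and 58.5 to 184 CPM. The stage 4 range overlapped that of the control, and the other stages lay below it. Of these 4, none was at 0 counts throughout, 3 passed the filter, and 1, Solyc02g063150, was called lower than the control at each of stages 1 and 5. At stage 4 the same tag was called higher than at stage 1, and a different tag, Solyc02g085950, higher than at stage 2. Among all genes tested, 3.31% were called lower than the control at stage 1 and 21.8% at stage 5. Stage 4 was called higher than stage 1 for 14.1% and higher than stage 2 for 11.8%. The part of the listed tags in the course of the transporters was not tested.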

How the data were processed

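Per the labels' protocols, RNA from root sections went into QuantSeq libraries, which read the 3′ end. The authors deposited 1 table of estimated counts per gene and library. The submitters' processing notes name Salmon 1.3.0 and DESeq2 without their roles; genome build, annotation and strand setting are not given in the sources used here. Of the deposited values, 5.64% were not whole, and all were rounded to whole counts. No molecular identifiers are mentioned, so intervals cover counting error only. Columns were matched to samples by name, and groups and replicate numbers came from the titles.

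Genes were kept with filterByExpr, scaled by TMM and fitted with edgeR 4.0.16 (limma 3.58.1, R 4.3.3) over all 12 libraries with stage as the only term, so that the 6 pairs shared 1 estimate of spread. The standard error was the log2 change divided by the square root of F. DESeq2 1.42.0, other filters and scalings, thinning, a replicate block and leaving out each library were alternatives. The fit was tested on simulated data. Duplicates differed by more than sampling noise (chi-square per degree of freedom 6.2 to 12.4).

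The members and lists were chosen with earlier results of these data known. The rule for named genes took the 3 members, the lists with values for those called, and the tested genes most like each member. Lists by product name could not be used, since the RefSeq table holds no products. The permutation tests are given without the adjustment over the members that was planned for them. The members were not chosen blind, and no such adjustment would have covered that choice.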

Additional observations from a re-analysis of the deposited data

Results flagged for a closer look

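The contrast with the control ran in opposite directions for AMT1-1 at the early and the late stages: it was called higher than the control at stages 1 and 2 and lower at stages 4 and 5. A pair of stages was flagged only if its direct contrast in edgeR's fit was also called. The adjusted p-values below were thus part of the rule and add no separate support. The log2 change was -1.43 at stage 4 against stage 1 (adjusted p = 0.000241), -1.38 at stage 5 against stage 1 (0.000154), -1.35 at stage 4 against stage 2 (0.000721) and -1.31 at stage 5 against stage 2 (0.000285). In the same order, these contrasts were called for 29%, 44.4%, 22.1% and 41.1% of all genes tested. They were examined because the levels had been seen to differ.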

How the results depend on the processing

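Leaving out the control and testing stages 3 to 5 against stages 1 and 2 was chosen after seeing the data: it gave -1.24 for AMT1-1 (exact permutation p = 0.00476) and -0.96 for AMT1-2 (0.0857). Here too the splits took single libraries as the unit, although duplicates share a stage. The calls of AMT1-1 against the control were lost with only the 4 libraries compared (log2 changes 0.73, 0.70, -0.57 and -0.55 at stages 1, 2, 4 and 5), and those at stages 4 and 5 also without a filter (-0.56 and -0.55) and after thinning (-0.55 and -0.44). Without a filter, AMT1-2 was called at stage 4 against control (-0.73), stage 4 against stage 1 (-0.86), stage 4 against stage 2 (-0.98), stage 4 against stage 3 (-0.92) and stage 5 against stage 4 (-1.03). The SE at stage 4 against control was then 0.23 for AMT1-2, against 0.40 with the filter. For AMT1-1 it was 0.24, against 0.18. The log2 changes hardly moved, so calls gained or lost without a filter went with the errors. Changes that were not called crossed 0 for AMT1-2 at stage 1 (-0.0082 with 10 counts in every library, -0.023 with only the 4 libraries compared) and for AMT1-1 at stage 5 against stage 4 (-0.0077 with 10 counts in every library). The cause was not tested.

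Leaving out 1 library at a time, AMT1-1 ranged against the control from 0.73 to 0.98 at stage 1, 0.60 to 0.92 at stage 2, -0.65 to -0.52 at stage 4 and -0.62 to -0.46 at stage 5. The stage 2 call was lost without either control, either stage 2 library or stage 3 replicate 2. The stage 4 and 5 calls were lost without control replicate 2, stage 3 replicate 1 or either library of that stage. Its steps ranged from -0.24 to 0.079 (stage 2 against 1), -1.13 to -0.81 (3 against 2) and -0.035 to 0.11 (5 against 4). AMT1-2 ranged from -0.31 to 0.68, -0.18 to 0.81, -0.23 to 0.76, -1.51 to -0.17 and -2.15 to -1.17 at stages 1 to 5. It was called at stage 4 without stage 4 replicate 2 (adjusted p = 0.0191, edgeR). Its steps ranged from -0.20 to 0.41 (2 against 1), -0.33 to 0.28 (3 against 2), -1.68 to -0.43 (4 against 3) and -1.49 to -0.24 (5 against 4), and its adjusted p over the 6 groups from 0.00222 to 0.0773, lost without either stage 5 library. The later-minus-earlier difference ranged from -1.09 to -0.66 for AMT1-2, with p under the threshold without either stage 3 library (0.0346 and 0.0433, exact permutation), and from -0.28 to 0.068 for AMT1-1 relative to AMT1-2.

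Replicate numbers did not pair samples: differences between duplicates correlated between groups with a mean of 0.05 (range -0.09 to 0.25 over 15 pairs of groups). With the replicate block, no call of either transporter changed (AMT1-1 0.85 at stage 1, AMT1-2 -1.71 at stage 5), and genes called numbered 98 in place of 51 for stage 2 against 1 and 42 in place of 16 for stage 4 against 3. Over all alternatives, genes called ran from 845 to 3629 at stage 1 (2432 in the fit over all libraries), 289 to 2298 at stage 2 (1099), 1489 to 3901 at stage 3 (2986), 3289 to 6702 at stage 4 (6040) and 5605 to 9017 at stage 5 (8490). For the 4 steps in order they ran from 6 to 527 (51), 0 to 1836 (687), 2 to 757 (16) and 0 to 1430 (0).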
